A study of Homo sapiens with 36 samples.

Results

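The insulin-like growth factor binding proteins IGFBP1 to IGFBP7 were followed across all samples of the series, together with the ligand IGF2 and its clearance receptor IGF2R. These 9 genes, of 45478 gene identifiers in the count table, were chosen by name, with their levels in all groups of these data already in view. Each of the 9 symbols matched 1 identifier. Because the levels chose the genes, differences between cell states and between antibodies are given for them as descriptions, with no test.

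The binding proteins are secreted carriers of IGF1 and IGF2, which signal through the receptor tyrosine kinase IGF1R. A carrier holds the ligand in the extracellular fluid until a protease cuts it, and several carriers also bind cells directly. IGF2R, the cation-independent mannose 6-phosphate receptor, takes up IGF2 for degradation and sorts lysosomal enzymes that carry the mannose 6-phosphate tag. IGFBP1 and IGFBP3 are known as genes that respond to hypoxia-inducible factors, which are active in clear cell renal carcinoma after loss of VHL.

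The samples were cultures of 786-O and A498, 2 established lines of that cancer, as parental cells and as cells kept in sunitinib until they grew stably. Sunitinib, a receptor tyrosine kinase inhibitor, stood at 4 µM for 786-O and 2 µM for A498. Every culture then received an antibody against PD-L1, namely atezolizumab (At), avelumab (Av) or durvalumab (Dur), for 24 h at a labelled 10 mg/mL, and untreated cultures were not analysed here. This made 12 groups of 3 libraries, or 4 cell states of 9 libraries. The states were 786-O parental, 786-O resistant, A498 parental and A498 resistant, each under 1 batch label of its own. State and batch therefore cannot be told apart, whereas the 3 antibodies shared a batch inside each state. Each resistant state was 1 selected population per line as far as the labels say. Nothing in the labels ties the 3 libraries of a group to different cultures, and a p-value then covers only the spread among these libraries, which may be technical.

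Library totals ran from 19994882 to 58122896 counts, and levels are given as CPM, each gene's counts scaled to that total. The libraries labelled A498 resistant went against their label. HIF1A, which encodes a hypoxia-inducible factor subunit that 786-O is known to lack, stood at 294 CPM in A498 parental cells and at 8.99 CPM in the libraries labelled A498 resistant. It stood at 9.36 CPM in 786-O parental and 8.71 CPM in 786-O resistant cells. Over 14948 genes, the mean log2 profile of these libraries had r = 0.9846 with 786-O resistant and r = 0.8451 with A498 parental cells, across genes that are not independent replicates. They are called the libraries labelled A498 resistant below, and every comparison that uses them names them so. Of 10 renal markers, 6 or 7 stood at 1 CPM or more in each state. PAX8, KRT8 and KRT18 stood at 210.3 CPM or more in every state and PAX2 at 15.7 or more, as means of 9 libraries. LRP2 and AQP1, genes of the proximal tubule, stood at 0.783 CPM or less, while the tumour marker CA9 stood at 1.27 CPM in A498 parental and at 0.0198 CPM or less in the other 3. The 6 endothelial markers summed to 0.213 to 3.31 CPM per library and the 8 leukocyte markers to 0.674 to 4.53 CPM. The endothelial gene CDH5 reached 0.0172 CPM at most and the leukocyte gene PTPRC 0.0264 CPM, as means of a state. Not every marker was this low. In A498 parental cells 1 of the 6 endothelial markers stood at 1 CPM or more, and 0 did in the other states. Of the 8 leukocyte markers 1 did so in 786-O parental and 1 in A498 parental cells, and 0 in the states labelled resistant. The 8 fibroblast and pericyte markers summed to 9.08 to 16.0 CPM in 786-O, 54.2 to 65.3 CPM in A498 parental cells and 35.3 to 38.5 CPM in the libraries labelled A498 resistant. COL1A1 made 55.7 CPM of this in A498 parental cells, where DCN stood at 0.0578 CPM and COL1A2 at 0.00362. Of these 8 markers, 2 stood at 1 CPM or more in A498 parental cells and 3 in each 786-O state. In the libraries labelled A498 resistant 4 did. The 4 hepatocyte markers summed to 67.9 to 88.1 CPM in 786-O parental, 21.8 to 26.9 in 786-O resistant and 6.32 to 7.77 in A498 parental cells, and to 21.1 to 27.6 in the libraries labelled A498 resistant. Nearly all of this was SERPINA1, while ALB stood at 0.0767 CPM or less. The part of these cell types in the levels was not tested.

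Per kilobase of exon, IGFBP7 and IGFBP3 were the most abundant binding protein transcripts in all 4 states. The 7 binding proteins together summed to 239 ± 14.1 CPM per kb in 786-O parental and 575 ± 35.7 in 786-O resistant cells (SD, n = 9 each). The sum was 452 ± 31.7 CPM per kb in A498 parental cells and 430 ± 23.6 in the libraries labelled A498 resistant. IGFBP7 supplied 56.1% of the sum in 786-O parental, 52.9% in 786-O resistant and 63.2% in the libraries labelled A498 resistant, but 28.6% in A498 parental cells. IGFBP3 supplied 32.3%, 42.7% and 31.0% in the same first 3 states and 50.8% in A498 parental cells. IGFBP6 made up 20.6% of the sum in A498 parental cells and 4.32% to 7.89% elsewhere. Each of the other 4 members gave 2.01% or less in every state.

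**Figure D1:**
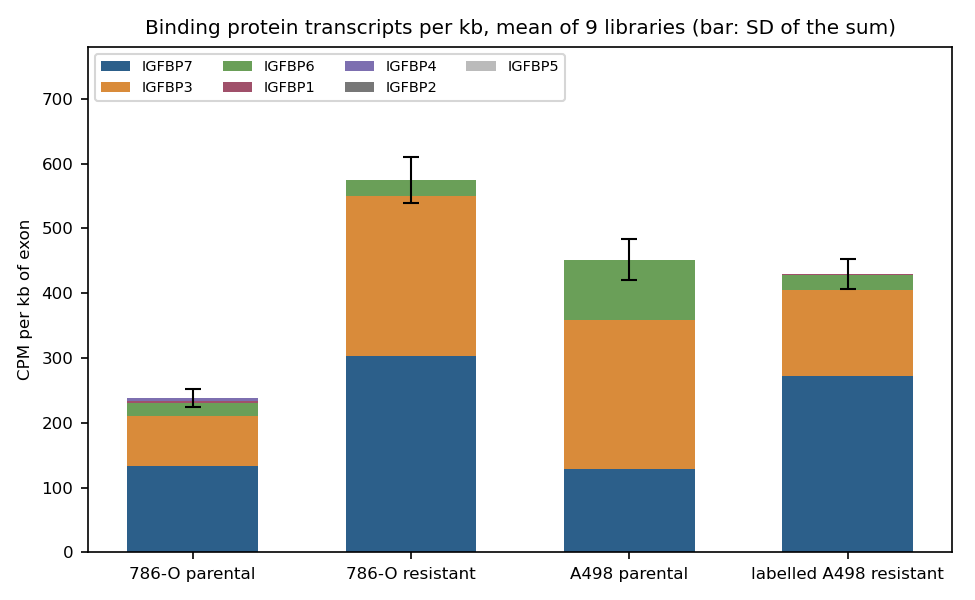
Summed binding protein transcripts in CPM per kb of exon (vertical axis) for the 4 cell states (horizontal axis), stacked by gene as means of 9 libraries, with the SD of the sum as error bar. The sum runs from 239 CPM per kb in 786-O parental to 575 in 786-O resistant cells, and IGFBP3 exceeds IGFBP7 in A498 parental cells.

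The order of levels per kb was IGFBP7, IGFBP3, IGF2R and IGFBP6 in both 786-O states, and likewise in the libraries labelled A498 resistant. For A498 parental cells it was IGFBP3, IGFBP7, IGFBP6 and IGF2R. In every library of every state each of these genes lay above the next in its order. The ranges of IGFBP7 and IGFBP3 overlapped in 786-O resistant cells alone among these neighbours. The ratio of IGFBP7 to IGFBP3 per kb was 1.75 ± 0.180 in 786-O parental, 1.25 ± 0.132 in 786-O resistant and 0.563 ± 0.027 in A498 parental cells (SD, n = 9 each). In the libraries labelled A498 resistant it was 2.04 ± 0.088. The range of this ratio in A498 parental cells, 0.522 to 0.591, lay below that of each of the other states, whose lowest value was 1.08.

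IGFBP3, the main carrier of IGFs in serum (ENSG00000146674.15, GRCh38 chromosome 7, 45912245 to 45921874, minus strand), ran from 285 to 395 CPM in 786-O parental cells, with a median of 367. In 786-O resistant cells it ran from 974 to 1355 CPM with a median of 1063. A498 parental cells held 919 to 1181 CPM, with a median of 1026, and the libraries labelled A498 resistant 586 to 647, with a median of 600. The ranges of 786-O resistant and A498 parental cells overlapped, and every other pair of neighbours in this order was apart. In 786-O, IGFBP3 was 2.95-fold higher in resistant than in parental cells (log2 change 1.56 ± 0.035, SE). The A498 comparison as labelled had a log2 change of -0.87 ± 0.024. The same libraries labelled A498 resistant, at 586 to 647 CPM, lay above all 786-O parental libraries, at 285 to 395 CPM. Between the parental lines A498 was higher by 1.55 ± 0.037 on the log2 scale.

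IGFBP7, a binding protein of low affinity for IGFs that is known from the basement membrane of tumour vessels (ENSG00000163453.11, chromosome 4, 57030773 to 57110385, minus strand), ran from 234 to 282 CPM in 786-O parental cells, with a median of 263. It ran from 552 to 634 CPM in 786-O resistant cells, with a median of 586. A498 parental cells held 229 to 264 CPM (median 249), and the libraries labelled A498 resistant 481 to 592 (median 507). The parental states overlapped each other, the states labelled resistant overlapped each other, and the 2 pairs were apart. IGFBP7 was 2.11-fold higher in 786-O resistant than in 786-O parental cells (log2 change 1.07 ± 0.032), and the log2 change of the A498 comparison as labelled was 0.99 ± 0.024. Of its exonic length, 18.9% overlaps genes on the opposite strand, chiefly POLR2B. The strand setting of the counting is not given in the sources used here, so the level of IGFBP7 is uncertain to that extent.

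IGF2R (ENSG00000197081.14, chromosome 6, 159969099 to 160113507, plus strand) shared the order of states of IGFBP7. It ran from 412 to 531 CPM in 786-O parental cells, with a median of 433, and from 752 to 983 in 786-O resistant cells, with a median of 917. A498 parental cells held 311 to 414 CPM, with a median of 393, and the libraries labelled A498 resistant 771 to 902, with a median of 847. As for IGFBP7, the parental states overlapped, the states labelled resistant overlapped, and parental states did not overlap those labelled resistant. The log2 change was 0.90 ± 0.057 in 786-O and 1.06 ± 0.064 in the A498 comparison as labelled. The libraries labelled A498 resistant differed from 786-O resistant cells by -0.14 ± 0.046.

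IGFBP6, a carrier with a preference for IGF2 (ENSG00000167779.9, chromosome 12, 53097436 to 53102345, plus strand), set A498 parental cells apart from all other libraries. Its level there ran from 113 to 137 CPM. It ran from 23.5 to 28.4 CPM in 786-O parental, 30.3 to 38.0 in 786-O resistant and 30.6 to 33.5 in the libraries labelled A498 resistant. The ranges of the last 2 overlapped, and 786-O parental cells lay below both. A498 parental cells were 4.86-fold above 786-O parental cells (log2 difference 2.28 ± 0.045), whereas the 786-O states differed by 0.29 ± 0.040.

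**Figure D2:**
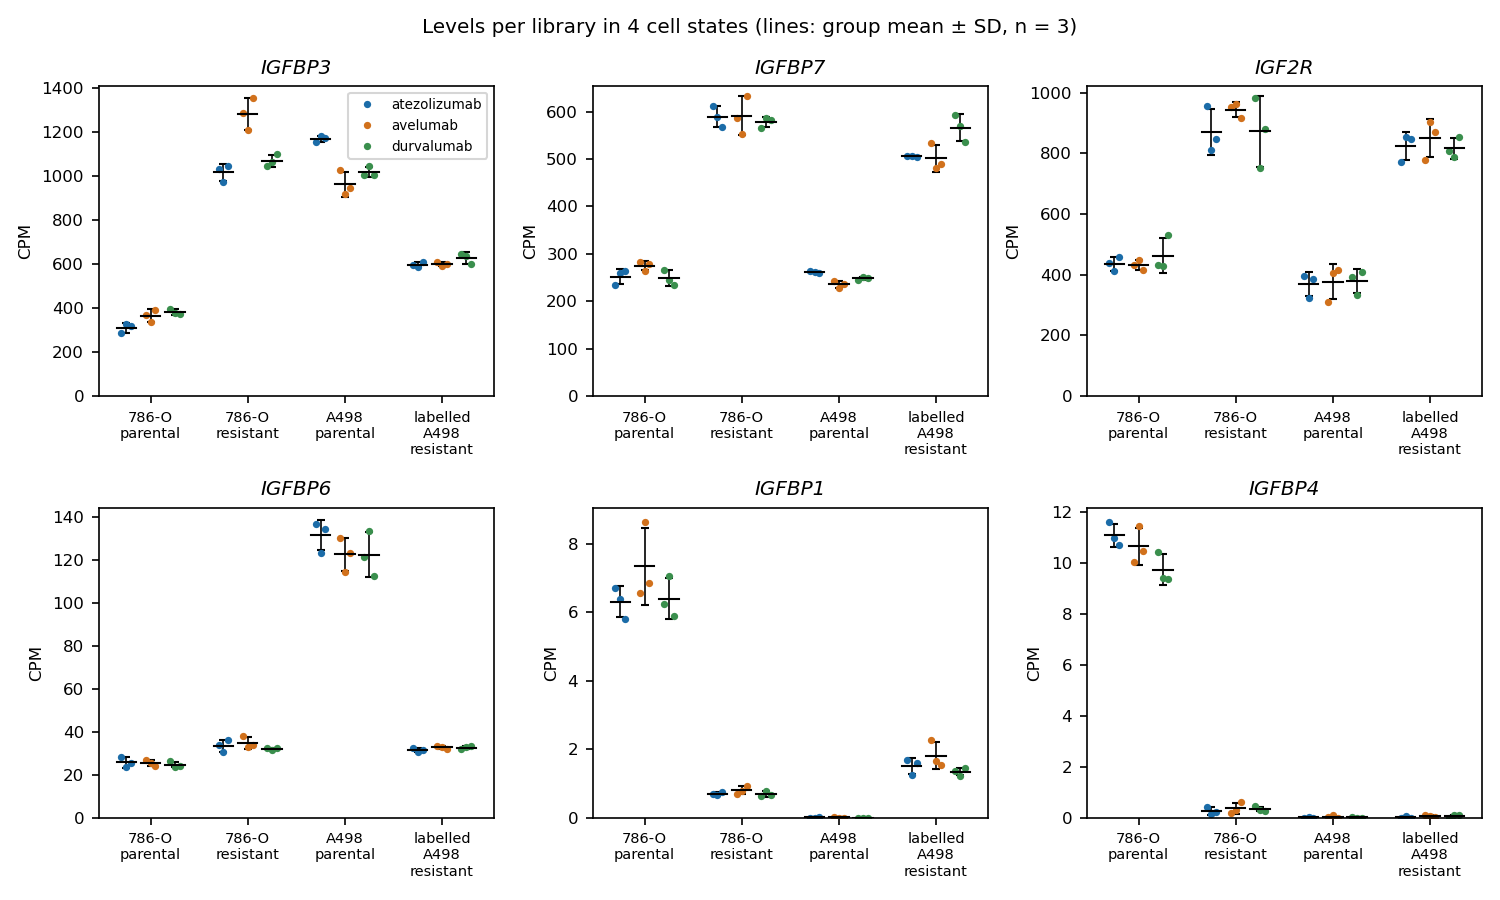
CPM of 6 members in each of the 36 libraries (vertical axes, starting at 0) by cell state (horizontal axis), coloured by antibody, with group means ± SD of 3 libraries. IGFBP7 and IGF2R are higher in both states labelled resistant, IGFBP6 stands at 113 to 137 CPM in A498 parental cells and at 38.0 CPM or less elsewhere, and IGFBP1 and IGFBP4 are highest in 786-O parental cells.

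IGFBP1 and IGFBP4 were detected mainly in 786-O parental cells. IGFBP1, a carrier known to respond to hypoxia, insulin and fasting (ENSG00000146678.10, chromosome 7, 45888357 to 45893668, plus strand), ran from 5.82 to 8.64 CPM there, with a median of 6.56. It ran from 0.626 to 0.923 CPM in 786-O resistant cells and from 1.23 to 2.27 in the libraries labelled A498 resistant. The 9 libraries of A498 parental cells held 2 counts in all. All 4 ranges were apart. The hepatocyte marker sum was also highest in 786-O parental and lowest in A498 parental cells, and its part in this order was not tested. IGFBP1 was 9.87-fold lower in 786-O resistant than in 786-O parental cells (log2 change -3.30 ± 0.084). The pooled CPM of 786-O parental cells was 1038 times that of A498 parental cells, with an exact 95% counting interval of 287 to 8578. The libraries labelled A498 resistant, with 343 counts, were at 237 times the A498 parental level (65.1 to 1966). Intervals of this kind cover counting error only, since reads were counted without molecular identifiers.

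IGFBP4, a carrier that blocks IGF action until PAPPA cuts it (ENSG00000141753.7, chromosome 17, 40443461 to 40457731, plus strand), ran from 9.37 to 11.6 CPM in 786-O parental cells, with a median of 10.5. It ran from 0.125 to 0.599 CPM in 786-O resistant cells. A498 parental cells held 6 counts in 9 libraries, and the libraries labelled A498 resistant held 10. The 2 states labelled A498 overlapped, and both 786-O states stood above them. The level in 786-O resistant cells was 35.3-fold below that of 786-O parental cells (log2 change -5.14 ± 0.105). Parental 786-O exceeded parental A498 537 times by pooled CPM, with a counting interval of 247 to 1464.

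IGFBP1 and IGFBP3 are neighbours on chromosome 7, on opposite strands with 18576 bp between them, and went opposite ways in 786-O. IGFBP2 and IGFBP5 are neighbours on chromosome 2, 7668 bp apart, and no library held more than 0.499 CPM of IGFBP2 or 0.550 CPM of IGFBP5. IGFBP2 (ENSG00000115457.10, chromosome 2, 216632828 to 216664436, plus strand), a carrier often raised in tumours, gave 5 counts in all in 786-O parental and 131 in 786-O resistant cells. Those counts correspond to a ratio of 24.6 with a counting interval of 10.3 to 77.1. IGFBP5 (ENSG00000115461.5, chromosome 2, 216672105 to 216695525, minus strand), which binds extracellular matrix, gave 10 and 62 counts in these states. Its ratio was 5.82, with an interval of 2.96 to 12.7. A498 parental cells gave 91 counts of IGFBP5 and 18 of IGFBP2.

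IGF2 (ENSG00000167244.21, chromosome 11, 2129112 to 2149603, minus strand), a ligand that IGFBP6 and IGF2R bind with high affinity, was counted in 786-O resistant cells alone. The 9 libraries of 786-O resistant cells held 18 counts, 0 to 4 each, and every library of the other 3 states held 0. A count of 0 over 9 libraries allows up to 0.00853 CPM in 786-O parental, 0.00984 in A498 parental and 0.0136 in the libraries labelled A498 resistant, at 3 counts over the state. With that limit for the 0 and the 18 counts taken as exact, the fold of 786-O resistant over 786-O parental cells was 5.64 or more. The counting error of the 18 is not in this value, so the true bound is lower. Because 75.0% of the exonic length of IGF2 is shared with other gene models, 73.7% of it on the same strand, reads that fit more than 1 model may be missing from this count.

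**Figure D3:**
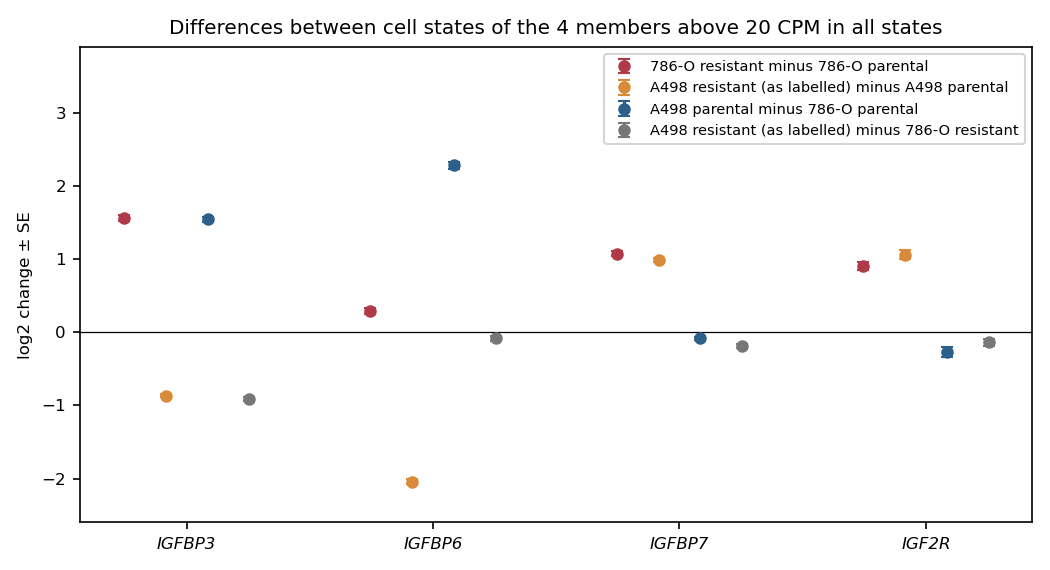
Log2 change ± SE (vertical axis) of the 4 members above 20 CPM in all states (horizontal axis), for 4 comparisons between cell states, each from 18 libraries. IGFBP7 and IGF2R are near 1 in 786-O resistant against parental cells and in the A498 comparison as labelled. IGFBP3 is at 1.56 in 786-O and at -0.87 in the A498 comparison as labelled, whose resistant libraries went against their label.

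RefSeq promoters of GRCh38.p14 covered 6 of the 9 members, and 3 of those that hold a motif named here are shown. The motifs were chosen after the sequences were seen, so the choice of these 3 rests on the motifs and not on the size of a difference. The windows of IGFBP5 and IGFBP6 hold none of the motifs named here. In the IGFBP6 window 231 of 250 bases lie in annotated exons, so it says little about sequence outside them. Of 3 windows of IGFBP2 1 holds GCGTG once, and it is not shown. The 250 bases before the RefSeq start of IGF2R (chr6:159968832-159969081, plus strand) hold the palindrome TCACGTGA 3 times, at 133, 75 and 29 bases before the start. This extended E-box is known as a binding sequence of MiT/TFE factors, which control lysosomal genes. It was present in 0.854% of the 35116 RefSeq promoter windows of this length and at 3 or more copies in 4 of them (0.0114%), those of IGF2R, RAD9A, DVL2 and BAX. In the line that follows, capitals mark the motif.
IGF2R: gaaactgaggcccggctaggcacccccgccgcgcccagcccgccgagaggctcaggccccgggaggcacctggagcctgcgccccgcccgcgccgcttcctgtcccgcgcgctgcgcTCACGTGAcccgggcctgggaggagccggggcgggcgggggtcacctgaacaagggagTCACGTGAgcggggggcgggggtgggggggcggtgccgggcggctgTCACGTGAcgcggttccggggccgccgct
The window of IGFBP3 (chr7:45921273-45921522, minus strand) holds the 5-letter core GCGTG 3 times, counting both strands. That core is part of hypoxia response elements and was present in 32.2% of all windows, at 3 or more copies in 3.16%. The other hypoxia core searched, ACGTG, was present in 18.5% of all windows. It has 0 matches in the IGFBP3 window and 6 in that of IGF2R, where each TCACGTGA holds it on both strands. In the IGFBP3 window 2 bases lie in an annotated exon.
IGFBP3: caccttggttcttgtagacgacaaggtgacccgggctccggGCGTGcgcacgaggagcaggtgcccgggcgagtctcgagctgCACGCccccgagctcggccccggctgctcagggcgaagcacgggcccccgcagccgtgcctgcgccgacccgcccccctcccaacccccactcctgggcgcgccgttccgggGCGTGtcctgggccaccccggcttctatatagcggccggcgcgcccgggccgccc
The window of IGFBP4 (chr17:40443200-40443449, plus strand) holds TATAAA once, a TATA box sequence present in 10.7% of all windows when both strands are searched.
IGFBP4: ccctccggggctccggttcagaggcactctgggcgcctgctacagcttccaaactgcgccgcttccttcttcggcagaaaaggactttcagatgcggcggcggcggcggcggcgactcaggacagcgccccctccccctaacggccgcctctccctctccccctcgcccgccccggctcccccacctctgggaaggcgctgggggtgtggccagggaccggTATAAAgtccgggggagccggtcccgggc
A match describes the letters of a window and says nothing about binding in these cells.

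Antibodies were compared inside each cell state, where they shared a batch label. The question was whether a member's level differed with the anti-PD-L1 antibody the cells had received. Log2 differences and their SE came from edgeR's fit to the 9 libraries of a state, and no p is given. A member enters only where its counts pass the filter on low counts, so the number of members differs by state. The share of all genes whose libraries did not overlap between 2 antibodies is given beside each count of members, and nothing is read from a count. In 786-O parental cells the avelumab and atezolizumab libraries did not overlap for 2 of 6 members, against 23.9% of all genes. Durvalumab and atezolizumab were apart for 2 (19.3% of all genes) and durvalumab and avelumab for 0 (15.3%). In 786-O resistant cells the counts were 1 of 7 for avelumab and atezolizumab (23.4%), 0 for durvalumab and atezolizumab (18.8%) and 2 for durvalumab and avelumab (12.2%). In A498 parental cells they were 2 of 4 (20.4%), 2 (20.9%) and 1 (11.6%) in the same order. In the libraries labelled A498 resistant they were 0 of 5 (10.1%), 1 (13.5%) and 2 (11.3%). IGFBP3 or IGFBP7 was among the members in each count above 0.

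In 786-O resistant cells IGFBP3 stood at 1034, 974 and 1048 CPM under atezolizumab. Under avelumab it stood at 1287, 1209 and 1355 CPM, and under durvalumab at 1046, 1063 and 1101. All avelumab libraries lay above all others, and the atezolizumab and durvalumab libraries overlapped. Avelumab minus atezolizumab was 0.31 ± 0.050 on the log2 scale (SE). Durvalumab minus avelumab was -0.27 ± 0.050, and durvalumab minus atezolizumab was 0.04 ± 0.050. The median absolute avelumab minus atezolizumab difference over all genes of this state was 0.09 on the same scale.

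The order was different in A498 parental cells. IGFBP3 stood there at 1154, 1181 and 1175 CPM under atezolizumab, 1026, 919 and 946 under avelumab, and 1004, 1044 and 1006 under durvalumab. All atezolizumab libraries lay above all others, and the avelumab and durvalumab libraries overlapped. Avelumab minus atezolizumab was -0.29 ± 0.037 on the log2 scale and durvalumab minus atezolizumab -0.21 ± 0.037. Durvalumab minus avelumab was 0.08 ± 0.037. The median absolute avelumab minus atezolizumab difference over all genes was 0.08.

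In 786-O parental cells IGFBP3 stood at 285, 329 and 319 CPM under atezolizumab, 367, 336 and 393 under avelumab, and 395, 379 and 372 under durvalumab. The atezolizumab libraries lay below all others. Avelumab minus atezolizumab was 0.22 ± 0.079 and durvalumab minus atezolizumab 0.28 ± 0.079 on the log2 scale. In the libraries labelled A498 resistant the avelumab minus atezolizumab difference of IGFBP3 was 0.01 ± 0.036, and the libraries overlapped.

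IGFBP7 in A498 parental cells stood at 264, 262 and 259 CPM under atezolizumab, 244, 229 and 236 under avelumab, and 245, 251 and 249 under durvalumab. The ranges of the 3 antibodies did not overlap, although the highest and lowest library were 264 and 229 CPM. Avelumab minus atezolizumab was -0.16 ± 0.033 and durvalumab minus atezolizumab -0.09 ± 0.033 on the log2 scale. In the libraries labelled A498 resistant IGFBP7 stood at 503 to 507 CPM under atezolizumab, 534, 481 and 490 under avelumab, and 592, 570 and 537 under durvalumab. The durvalumab libraries lay above all others there, by 0.17 ± 0.041 over atezolizumab. In 786-O parental cells the avelumab libraries lay above those of atezolizumab by 0.11 ± 0.062. For IGF2R the libraries of every pair of antibodies overlapped in all 4 states.

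**Figure D4:**
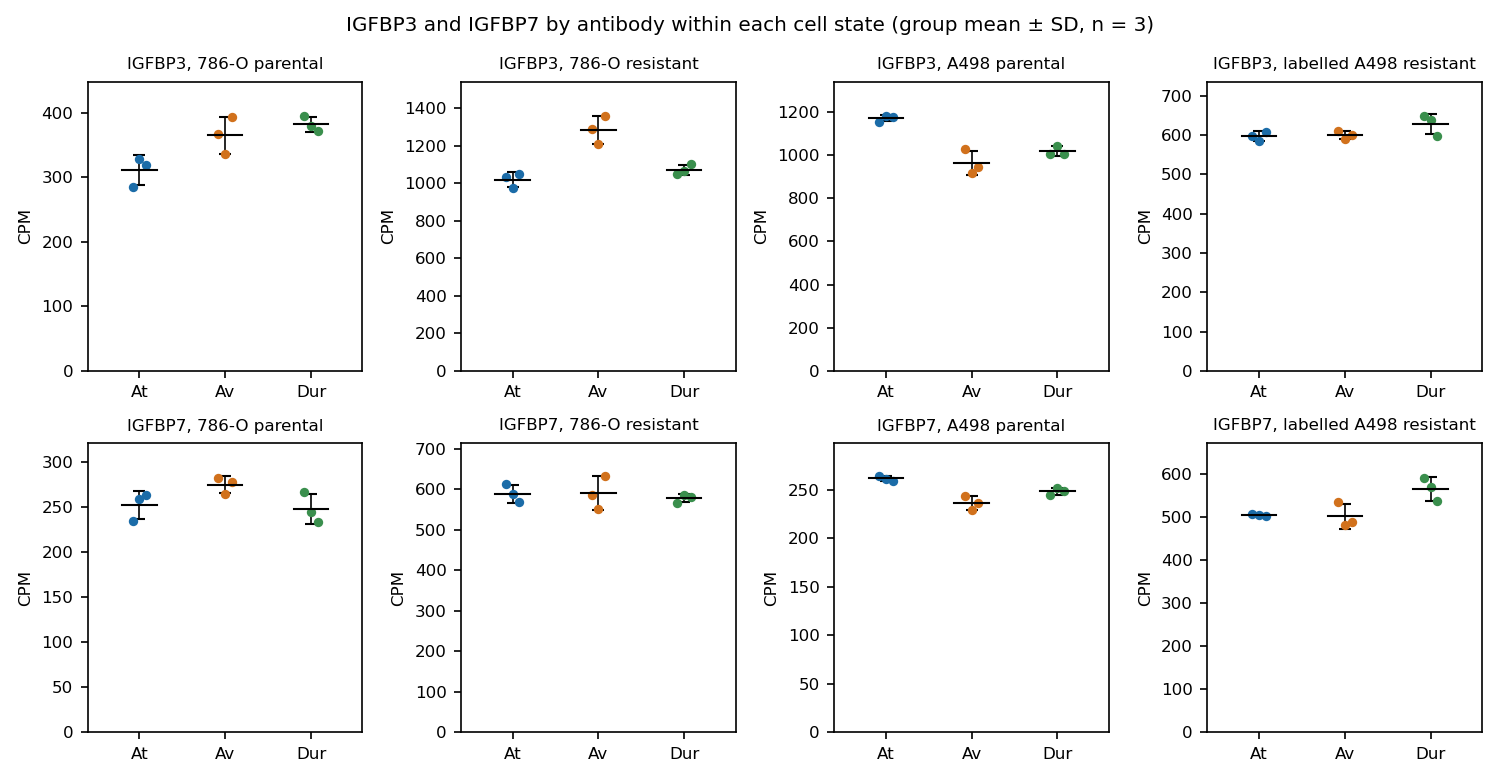
CPM of IGFBP3 (top) and IGFBP7 (bottom) in each library (vertical axes, starting at 0) under atezolizumab (At), avelumab (Av) and durvalumab (Dur), 1 panel per cell state, with group means ± SD of 3 libraries. IGFBP3 is highest under avelumab in 786-O resistant cells and highest under atezolizumab in A498 parental cells.

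The surrounding IGF system was read from 7 lists of 86 other genes, chosen with earlier results of these data known. Calls here needed an edgeR adjusted p under 0.05 and at least a 2-fold change between states. In 786-O, 11 of 70 tested genes of the lists rose in resistant cells and 6 fell, against 14.5% of all genes higher and 5.67% lower. The median log2 change of the 70 genes was 0.14, beside 0.03 over all genes.

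The ligands and their receptors came first. IGF1R, the signalling receptor, stood at 32.0 ± 2.71 CPM in 786-O parental and 63.1 ± 6.88 in 786-O resistant cells (SD, n = 9 each). Its change of 0.87 ± 0.051 on the log2 scale passed the adjusted p (1.12e-11 by edgeR) but not the 2-fold limit. In A498 parental cells it stood at 23.6 ± 2.03 CPM and in the libraries labelled A498 resistant at 72.2 ± 3.41. The log2 difference of these 2 states was 1.53 ± 0.038 (edgeR adjusted p = 3.10e-24). INSR, the insulin receptor, gave 1 count in 786-O parental, 30 in 786-O resistant and 675 in A498 parental cells. In the libraries labelled A498 resistant it stood at 0.310 CPM, against 2.22 CPM in A498 parental and 0.0797 CPM in 786-O resistant cells. The log2 change of the A498 comparison as labelled was -2.90 ± 0.158. The pooled CPM of INSR in A498 parental cells was 779 times that of 786-O parental cells, with a counting interval of 139 to 30808. IGF1 gave 1 count in A498 parental cells, 1 in the other state labelled A498 and 0 in 786-O. IGFALS, the third component of the serum complex of IGF and IGFBP3, reached 0.306 CPM at most in any library.

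Among proteases that cut binding proteins and their inhibitors, 5 of 15 tested rose in 786-O resistant cells and 4 fell. At the same adjusted p and 2-fold limits 14.5% of all genes were higher and 5.67% lower. PAPPA2, which cuts IGFBP3 and IGFBP5, rose from 3.57 to 42.7 CPM (log2 change 3.46 ± 0.071, edgeR adjusted p = 5.54e-20). STC2, a stanniocalcin that inhibits PAPPA and PAPPA2, fell from 248 to 32.7 CPM (log2 change -3.03 ± 0.032, edgeR adjusted p = 5.99e-36). Its relative STC1 rose from 11.9 to 26.8 CPM (log2 change 1.06 ± 0.039). MMP1, a collagenase, fell from 9.70 to 2.65 CPM, with 7.61% of its exons overlapping a neighbouring gene. The libraries labelled A498 resistant exceeded A498 parental cells in PAPPA2 (19.6 against 2.24 CPM) and lay below them in STC2 (26.6 against 109 CPM), both called, and these 2 values were picked after they were seen.

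Other proteins with an IGFBP-type domain had 4 of 7 tested genes higher in 786-O resistant cells and 1 lower. At the same adjusted p and 2-fold limits 14.5% of all genes were higher and 5.67% lower, beside each 2-fold count below. CCN5 among the higher (0.0522 to 0.442 CPM) and CCN6, the lower (0.232 to 0.0980 CPM), rest on few counts. Both are named outside the rule after their values were seen. CCN3, a matricellular protein, rose from 10.7 to 68.9 CPM (log2 change 2.58 ± 0.033). CRIM1, a transmembrane protein that binds BMPs, rose from 335 to 802 CPM (log2 change 1.15 ± 0.026). Of 12 genes for mannose 6-phosphate tagging and sorting, the pathway in which IGF2R is a receptor, 1 rose and 0 fell at these limits, while 7 were higher and 4 lower by the edgeR adjusted p alone. By that limit alone 43.6% of all genes were higher and 40.2% lower. The gene that rose was GNPTG, a subunit of the enzyme that adds the tag (50.4 to 110 CPM, log2 change 1.02 ± 0.025), and 30.9% of its exonic length overlaps neighbours, so its count is uncertain. Among genes of signalling below the receptors 12 of 24 were higher and 9 lower by the edgeR adjusted p alone, beside the same 43.6% and 40.2% of all genes. At 2-fold 0 rose and 1 fell, GRB14, an adaptor that inhibits the insulin receptor (8.86 to 3.88 CPM, log2 change -1.30 ± 0.058). The IGF2 locus and IGF2 mRNA-binding proteins had 1 of 4 higher, IGF2BP1 at 0.127 and 0.565 CPM, named outside the rule after its values were seen. Of 7 tested cell surface partners of binding proteins, 5 were higher and 2 lower by the edgeR adjusted p alone (43.6% and 40.2% of all genes), with log2 changes of -0.66 to 0.74, so 0 met the 2-fold limit.

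**Figure D5:**
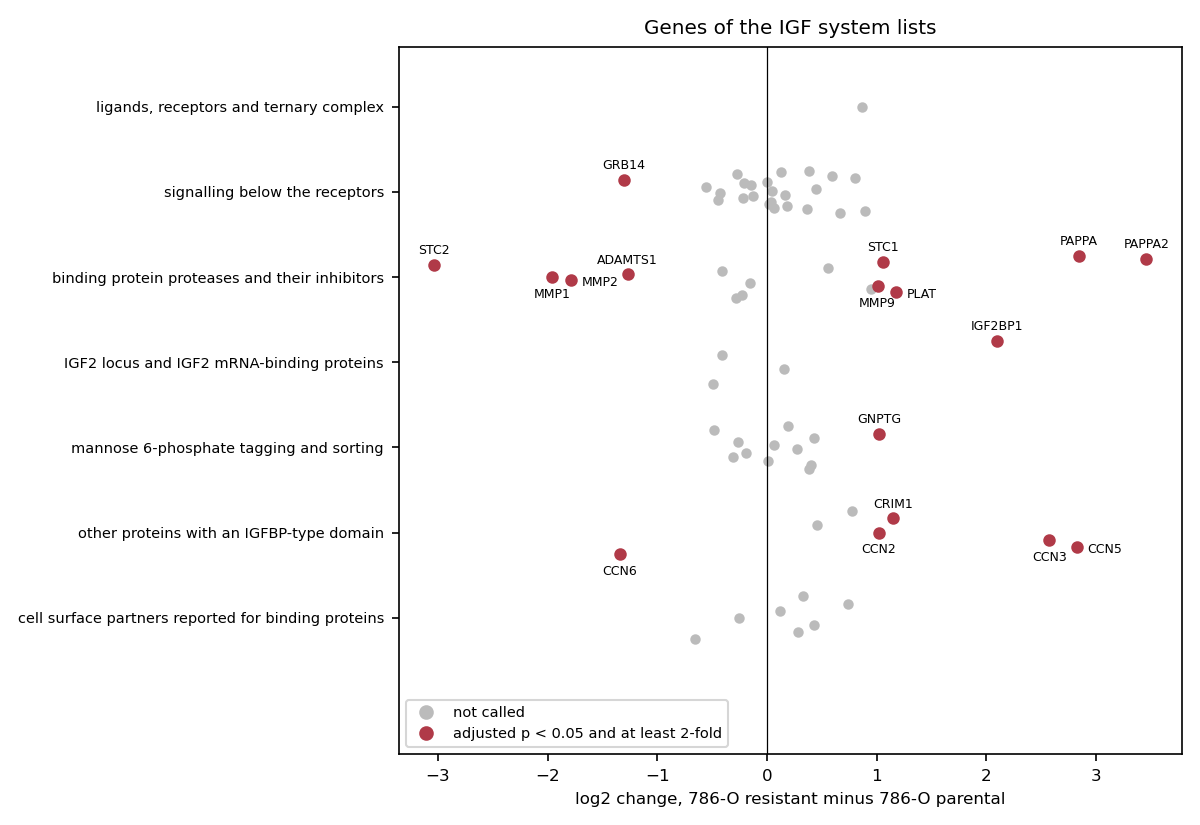
Log2 change from 786-O parental to 786-O resistant cells (horizontal axis) of each tested gene in 7 lists of the IGF system (vertical axis), with called genes labelled in red and the others in grey. PAPPA2 is at 3.46 and STC2 at -3.03 within the list of proteases and inhibitors, and the signalling list has 1 called gene, GRB14. Labels include genes below 5 CPM.

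Against A498 parental cells, 14 of 73 tested genes of the lists were higher and 13 lower in the libraries labelled A498 resistant. Over all genes 15% were higher and 16.8% lower. Those libraries went against their label, so these differences are not read as a change within A498. PLAU, the urokinase gene, stood at 120 against 4.43 CPM, but shares 31.1% of its exonic length with an antisense gene. MMP7, matrilysin, stood at 1.56 against 45.4 CPM (log2 change -4.94 ± 0.118). LRP1, a receptor for IGFBP3 complexes among many ligands, stood at 79.2 against 265 CPM (log2 change -1.83 ± 0.135).

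Between the parental lines, 15 of 73 tested genes of the lists were higher in A498 and 9 were lower, against 20.9% and 10.7% of all genes. PLAT, tissue plasminogen activator, stood at 32.1 CPM in A498 and 0.809 in 786-O (log2 difference 5.31 ± 0.072). MMP2, gelatinase A, stood at 1.01 against 55.3 CPM (log2 difference -5.83 ± 0.061). IGF2BP2, which binds IGF2 mRNA, stood at 21.4 against 91.8 CPM (log2 difference -2.13 ± 0.026). These comparisons share the 2 parental states with those above.

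Between the libraries labelled A498 resistant and 786-O resistant cells, 2 of 71 tested genes of the lists were higher and 3 were lower, against 3% and 2.28% of all genes. PAPPA2 (19.6 against 42.7 CPM, log2 difference -1.16 ± 0.046) was among the lower ones. MMP9, gelatinase B, was also lower (2.12 against 5.16 CPM) and shares 18.4% of its exonic length with an antisense gene. The number higher was 4 or 5 without any one of 5 libraries. It was 5 without atezolizumab replicate 1 labelled A498 resistant, and 4 without atezolizumab replicate 2 or avelumab replicate 1 of that label. It was also 4 without atezolizumab replicate 1 or durvalumab replicate 1 of 786-O resistant cells.

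The genes whose pattern over the 12 group means lay nearest to each member were found among 11301 protein-coding genes that reached 5 CPM in a group. Nearness was the root mean square difference of log2(CPM + 0.1) after centring, and points of 1 state share a batch. IGF2R lay nearest to ERBB2 (0.059, r = 0.994), HUWE1 (0.059) and CRTC3 (0.061). IGFBP7 also lay nearest to ERBB2 (0.084, r = 0.989), followed by HPS1 (0.090) and GARIN5A (0.091). IGFBP6 lay nearest to SRC (0.075, r = 0.997), ALDH3A2 (0.081) and EPHX1 (0.085). IGFBP3 had wider gaps, with DNHD1 at 0.180 (r = 0.968), BMP1 at 0.183 and PSD4 at 0.207. IGFBP4 lay nearest to ALDH2 (0.255, r = 0.997), GALNT5 (0.417) and LAYN (0.469), and IGFBP1 to CRACR2A (0.357, r = 0.989), ASS1 (0.423) and KRT79 (0.492). IGFBP2, IGFBP5 and IGF2 were below the limit for this search.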

How the data were processed

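RNA was measured in 36 libraries of 4 cell states under 3 antibodies. The authors deposited raw read counts per gene in 1 table. Per the submitters' processing notes, they used HISAT2 2.1.0 and GRCh38, then featureCounts 1.6.3, after bcl2fastq 2.19.0 and Trimmomatic 0.36.6. Per the labels' protocols, the library kit was stranded and selected mRNA. The strand setting of the counting and the annotation release are not given in the sources read here.

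Coordinates came from GENCODE 29, which held 43799 of the 45478 identifiers. CPM is counts over the raw library total, and CPM per kb divides by the union of exons. Genes passing filterByExpr (count minimum 10, total minimum 15) were scaled by TMM and fitted in edgeR 4.0.16 (R 4.3.3) by robust quasi-likelihood over group means. Antibody differences used the 9 libraries of a state and state comparisons 18. Planned tests of members between antibodies were run but are not given, because the levels of all 12 groups were in view when the members were chosen. P-values were Benjamini-Hochberg adjusted over all genes of a contrast (threshold 0.05), and list calls also needed a 2-fold change. The scripts were tested on simulated data. Alternatives were DESeq2 1.42.0, its size factors, filters, a replicate block and leaving out each library.

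The members and lists were chosen with earlier results of these data known. Besides all members, IGF1R and INSR, the text names per list and comparison up to 2 genes in each direction with the largest called change and at least 5 CPM in the higher state; others are marked. Depth was lowest in the libraries labelled A498 resistant (19994882 to 37219906 counts). The SE of abundant members did not follow depth. For avelumab minus atezolizumab of IGFBP3 it was 0.036 in those libraries and 0.079 in 786-O parental cells. For IGF2R the SE was 0.050 in those libraries and 0.144 in A498 parental cells. For IGFBP7 it was 0.041 in those libraries and lower, at 0.033, in A498 parental cells. All genes this rule picks are named for 786-O resistant against parental cells and between the states labelled resistant. In the other comparisons some are not reported here.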

Additional observations from a re-analysis of the deposited data

Results flagged for a closer look

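Antibody differences of IGFBP3 and IGFBP7 had opposite signs in some cell states. States were picked only where every library of an antibody lay above or below every library of the other. Such a lack of overlap held for 10.1% to 23.9% of all genes across states and pairs of antibodies. The differences between states were not tested, and state and batch label cannot be told apart. Avelumab minus atezolizumab was 0.22 in 786-O parental, 0.31 in 786-O resistant and -0.29 in A498 parental cells for IGFBP3 on the log2 scale. For IGFBP7 it was 0.11 in 786-O parental and -0.16 in A498 parental cells. Durvalumab minus atezolizumab was 0.28 in 786-O parental and -0.21 in A498 parental cells for IGFBP3. For IGFBP7 it was -0.087 in A498 parental cells and 0.17 in the libraries labelled A498 resistant. In the states not picked the libraries overlapped. There avelumab minus atezolizumab was 0.01 labelled A498 resistant for IGFBP3, and -0.02 in 786-O resistant and -0.01 labelled A498 resistant for IGFBP7. Durvalumab minus atezolizumab was 0.04 in 786-O resistant and 0.07 labelled A498 resistant for IGFBP3. For IGFBP7 it was -0.04 in 786-O parental and -0.06 in 786-O resistant cells.

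Single libraries stood far from the other 8 of their state in 4 of 33 sets of 9 libraries. The cutoff flags about 1 in 20 sets by chance if values are normally distributed. These sets pool 3 antibodies and include genes of few counts, so that rate may not hold and no excess is read from it. IGFBP1 stood at 8.64 CPM in avelumab replicate 2 of 786-O parental cells, above the other 8. It stood at 2.27 CPM in avelumab replicate 1 labelled A498 resistant. IGF2R stood at 531 CPM in durvalumab replicate 3 of 786-O parental cells. IGFBP4 stood at 0.0854 CPM in avelumab replicate 2 of A498 parental cells, a state with 6 counts of that gene in all.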

How the results depend on the processing

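All log2 changes of members between states kept their sign under every setting run. Those resting on few counts moved when 1 library was left out. IGFBP2 in 786-O went from 4.30 to 4.96 without durvalumab replicate 3 of parental cells. IGFBP1 between parental lines went from -9.62 to -10.30 without atezolizumab replicate 3 and to -10.26 without avelumab replicate 1 of A498 parental cells, and in the A498 comparison as labelled from 7.24 to 7.85 and 7.80. IGFBP4 between parental lines went from -9.09 to -9.78, -9.49 and -9.69 without atezolizumab replicate 2, avelumab replicate 2 or durvalumab replicate 1 of A498 parental cells. IGFBP5 between parental lines went from 3.42 to 4.01 without avelumab replicate 3 of 786-O parental cells. IGFBP4 between the states labelled resistant went from -2.97 to -3.75 without atezolizumab replicate 2 labelled A498 resistant. Its avelumab minus atezolizumab difference in 786-O resistant cells went from 0.39 to 0.97, and durvalumab minus atezolizumab from 0.34 to 0.91, without atezolizumab replicate 1. The causes were not tested. Avelumab minus atezolizumab of IGFBP3 ran from 0.27 to 0.35 in 786-O resistant and from -0.34 to -0.26 in A498 parental cells when each library was left out, and that of IGFBP7 in 786-O parental cells from 0.056 to 0.15. The 2 list genes higher in the libraries labelled A498 resistant than in 786-O resistant cells became 0 with the strict filter (5 CPM in 3 libraries, which tests fewer genes) and 2 to 5 when each library was left out. Every other count of list genes was within 1.5 times of its value. With TMM-scaled totals the levels labelled A498 resistant were 571 CPM for IGFBP3, 30.3 for IGFBP6 and 779 for IGF2R. Replicate numbers gave no clear pairing of the samples: same-numbered libraries of a state had correlations of deviations from -0.183 to 0.235. Of 9 such pairs per state, 1 in 786-O resistant cells and 2 labelled A498 resistant were above 0.1. So few pairs cannot exclude a pairing. With the replicate block 11 list genes rose and 6 fell in 786-O, as without it, and IGFBP1 changed by 7.46 in the A498 comparison as labelled and by -9.89 between parental lines, where IGFBP4 changed by -9.70. Depth limits IGFBP2, IGFBP5 and IGF2, at 18 counts or fewer per library.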
